A study of Homo sapiens with 2 samples.

Results

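The genes described here are the 52 genes that license, start and run DNA replication, from the origin recognition complex to the chromatin factors that follow the fork. They were chosen by symbol from a written list of replication genes, and all 52 were found among the 25268 symbols listed for each library. The list was chosen with earlier results of these data known. One library came from C4-2B MDVR cells given 20 µM Indocin for 3 days, and the other from the same cells given the vehicle DMSO for 3 days. Both cultures grew in medium with 20 µM enzalutamide, so the antiandrogen was present in the treated cells and in the control. C4-2B MDVR is a castration-resistant prostate cancer line that has become resistant to enzalutamide, and Indocin is indomethacin, a cyclooxygenase inhibitor that also inhibits the androgen-synthesis enzyme AKR1C3. Each group had a single library, so every difference below stands without replicates, and neither a p-value nor an error between cultures was available.

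Replication is prepared in G1, when the origin recognition complex, CDC6 and CDT1 load the MCM2-7 helicase onto origins in an inactive form. In S phase the kinase CDC7 with its partner DBF4, together with cyclin-dependent kinases, turns the loaded helicase into the active CDC45-MCM-GINS form, after which polymerase alpha with primase starts each strand, and polymerases epsilon and delta extend them on the PCNA clamp. Many of these genes are transcribed by E2F factors at the entry to S phase, so that their messenger RNA is a common measure of proliferation in cancer cell lines, prostate lines included.

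The values were FPKM, fragments scaled by transcript length and library size by the authors, so levels can be compared between genes. The absolute read depth was unknown. Low values moved in steps that put the worth of 1 fragment in the Indocin library at 1.014 times that in the DMSO library. Differences are log2 ratios of FPKM + 1, Indocin over DMSO, which understate the fold of genes at low levels. The 11969 genes whose libraries averaged 1 FPKM or more are called tested genes, although no statistical test could be run on them. Their median log2 ratio was -0.03, and all 52 replication genes were among them. All 11 luminal prostate markers stood at 1 FPKM or more in both libraries, with summed levels of 1871 FPKM in the Indocin library and 2307 FPKM in the DMSO library. Blood markers were all below 1 FPKM (0 of 5 passed), with sums of 0.0591 FPKM in the Indocin library and 0.0737 FPKM in the DMSO library. Of 6 neuroendocrine markers 1 (ENO2) passed, and their sums were 32.4 FPKM with Indocin and 33.7 FPKM with DMSO. Of 6 stromal markers 2 passed, VIM and COL1A1, while COL1A2, COL3A1 and DCN were listed at 0 in both libraries. The stromal markers summed to 26.6 FPKM in the Indocin library and 35.2 FPKM in the DMSO library, and their part in the results was not tested.

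Replication genes were lower in the Indocin library almost throughout. Of the 52, 50 had log2 ratios below 0 (49 with the libraries scaled to a common upper quartile or sum, where POLE was just above 0), against 55.2% of all tested genes, and 10 were at least 1.5-fold lower, against 0.769% of all tested genes. None was at least 1.5-fold higher, where 2.19% of all tested genes were. The median log2 ratio of the 52 was -0.38, with quartiles of -0.53 and -0.23, and 4.5% of all tested genes lay at or below that median. Tested genes whose mean level lay within the range of the 52 gave a similar background, with 0.752% at least 1.5-fold lower and 58.8% below 0. Summed over the 52 genes the level was 1447 FPKM in the Indocin library and 1939 FPKM in the DMSO library, a ratio of 0.746, while the sum over all tested genes had a ratio of 0.945. A single short RNA, BCYRN1, weighed on the second ratio, at 26889 FPKM in the Indocin library and 43986 FPKM in the DMSO library, and without it and 4 SNAR genes the ratio over tested genes was 0.971. Scaled to a common sum without these RNAs, 50 of the 52 were below 0, against 47.2% of tested genes, and 6 were at least 1.5-fold lower, against 0.610%. In a bulk sample, fewer cells in S phase and less RNA per cell cannot be told apart.

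**Figure D1:**
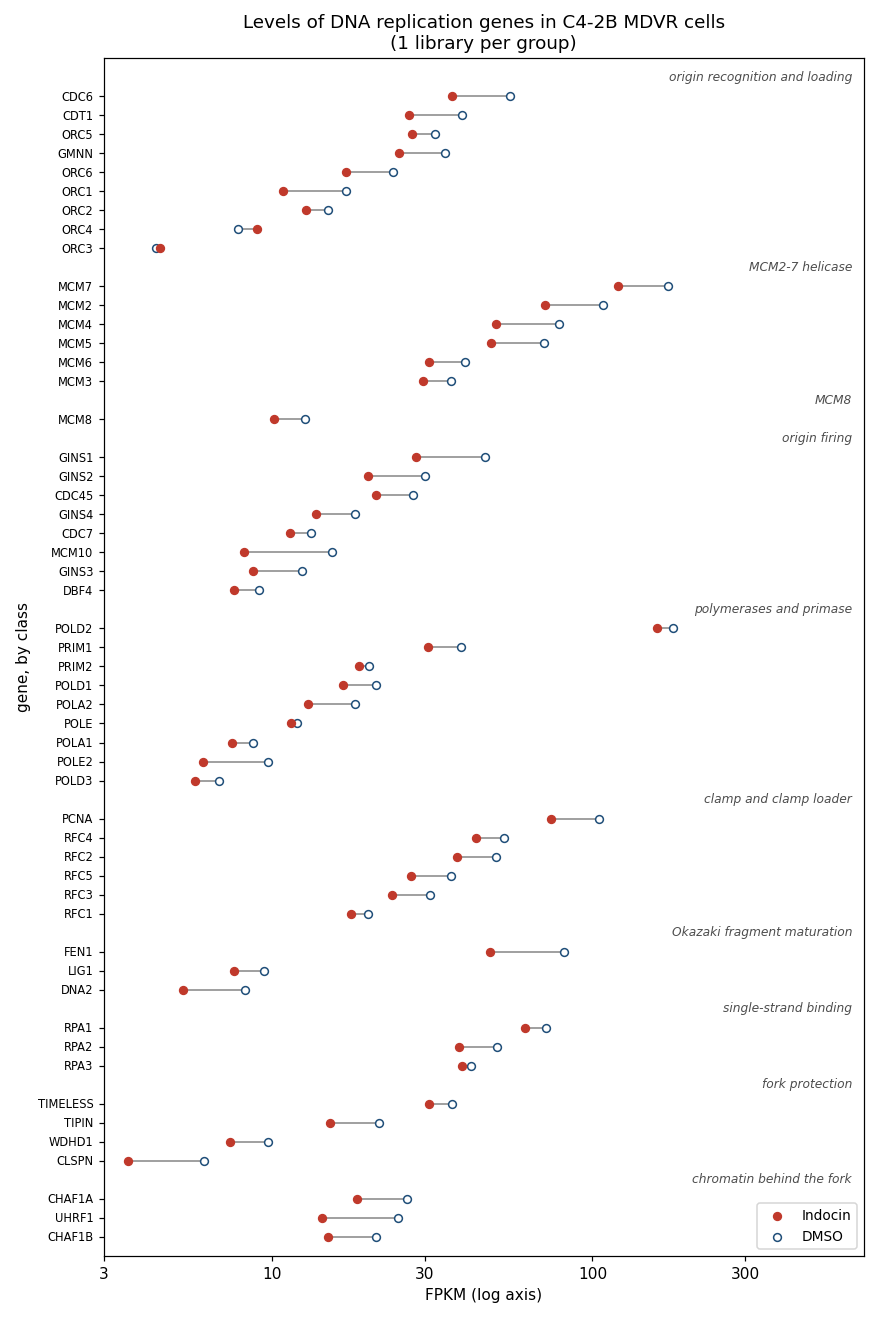
FPKM of each of the 52 genes on a log axis, grouped by class and sorted by mean level, with filled points for the Indocin library and open points for the DMSO library. The filled point lies to the left of the open one for every gene but ORC3 and ORC4.

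With 1 FPKM added to each value, the 3 lowest ratios belonged to genes of different steps. MCM10, which helps the helicase to open and recruits polymerase alpha, stood at 8.18 FPKM in the Indocin library and 15.4 FPKM in the DMSO library (log2 ratio -0.84). FEN1, the nuclease that trims Okazaki fragments, stood at 48.0 FPKM with Indocin and 81.7 FPKM with DMSO (-0.76). UHRF1, which brings the maintenance DNA methyltransferase to newly made DNA, stood at 14.4 FPKM with Indocin and 24.8 FPKM with DMSO (-0.75). All 3 stayed at least 1.5-fold lower under every pseudocount and scaling tried, as did GINS1. The ranking depended on the pseudocount. With 0.1 FPKM CLSPN (-0.771) lay below FEN1 (-0.766). With 5 FPKM FEN1 (-0.710) lay below MCM10 (-0.633), and GINS1 (-0.628) below UHRF1 (-0.624). At the other end, ORC4, a subunit of the origin recognition complex, was the gene with the highest ratio, at 9.01 FPKM in the Indocin library and 7.86 FPKM in the DMSO library (0.18).

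The annotated promoters of MCM10, FEN1, UHRF1 and ORC4 are printed below, because these 4 genes bound the range of ratios with 1 FPKM added. They come from RefSeq (GRCh38.p14, another build than the GRCh37 and hg19 named for the expression values), run 5′ to 3′ on the gene's strand, and cover 250 bases before to 50 bases after the first start listed. Capitals mark TTTNNCGC, a relaxed form of the E2F site, and CCAAT, the NFY site, on either strand (so GCGNNAAA and ATTGG are marked too). MCM10 lies at chr10:13161308-13161607 on the plus strand, FEN1 at chr11:61792661-61792960 on the plus strand, UHRF1 at chr19:4909251-4909550 on the plus strand and ORC4 at chr2:148021502-148021801 on the minus strand.
MCM10: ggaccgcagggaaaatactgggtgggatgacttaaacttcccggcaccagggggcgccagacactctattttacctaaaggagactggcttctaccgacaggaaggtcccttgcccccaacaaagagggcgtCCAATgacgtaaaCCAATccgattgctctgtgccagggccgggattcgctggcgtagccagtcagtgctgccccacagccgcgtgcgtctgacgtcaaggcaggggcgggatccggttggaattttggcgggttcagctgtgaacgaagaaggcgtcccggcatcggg
FEN1: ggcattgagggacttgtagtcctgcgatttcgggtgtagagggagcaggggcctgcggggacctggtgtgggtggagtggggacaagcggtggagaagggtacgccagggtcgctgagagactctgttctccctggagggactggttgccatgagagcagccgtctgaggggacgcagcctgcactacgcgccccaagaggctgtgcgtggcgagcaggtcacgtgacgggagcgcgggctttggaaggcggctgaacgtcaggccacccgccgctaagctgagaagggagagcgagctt
UHRF1: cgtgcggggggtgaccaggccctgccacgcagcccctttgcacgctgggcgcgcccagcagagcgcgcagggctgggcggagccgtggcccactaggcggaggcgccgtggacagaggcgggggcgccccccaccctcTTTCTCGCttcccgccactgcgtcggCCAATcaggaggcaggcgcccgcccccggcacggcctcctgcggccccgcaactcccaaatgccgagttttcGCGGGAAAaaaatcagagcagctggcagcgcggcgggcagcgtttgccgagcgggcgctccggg
ORC4: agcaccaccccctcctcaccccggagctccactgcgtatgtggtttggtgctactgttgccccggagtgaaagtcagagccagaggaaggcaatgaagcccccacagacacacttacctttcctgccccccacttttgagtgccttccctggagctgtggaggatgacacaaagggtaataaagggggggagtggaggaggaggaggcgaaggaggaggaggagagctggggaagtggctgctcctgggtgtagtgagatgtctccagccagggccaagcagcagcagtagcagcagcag
The MCM10 stretch held CCAAT at 2 places, the UHRF1 stretch held TTTNNCGC at 2 places and CCAAT at 1, and the stretches of FEN1 and ORC4 held neither. No match says only that these letters are not in this window.

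Over all the replication genes these letters were common. The promoter table held 45 of the 52 genes, and a gene was counted if any of its listed starts had the motif. TTTNNCGC was found for 26 of the 45 (57.8%), against 13.1% of 8863 other tested genes and 8.23% of all 27305 genes in the table. The strict forms it includes, TTTCCCGC and TTTGGCGC, were found for 12 and 9 of the 45, against 3.36% and 1.34% of the other tested genes and 1.98% and 0.795% of all genes in the table. CCAAT was found for 27 of the 45 (60.0%), against 43.6% of the other tested genes and 39.7% of all. TTTGAA, the CHR element of many mitotic genes, was found for 1 of the 45 (DBF4), against 12.9% of the other tested genes and 18.2% of all. TGATGNAA, a relaxed form of the element that ATF4 binds, was found for 0 of the 45, against 2.54% of the other tested genes and 4.46% of all, and its stricter form TGATGCAA likewise for 0, against 0.688% and 1.08%. Median promoter GC content was much the same for the 45 genes (65%) and the other tested genes (65.3%). It was lower, 58.3%, for all genes in the table.

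Among the 10 genes at least 1.5-fold lower, 9 were in the promoter table. Of these 6 had TTTNNCGC, against 57.8% of the 45 and 13.1% of the other tested genes. CCAAT was found for 6 of the 9 too, against 60.0% and 43.6%. The strict forms TTTCCCGC and TTTGGCGC were found for 2 and 3 of the 9. For each of the 5 genes with TTTNNCGC besides UHRF1, 1 match is printed with 11 bases on either side. Where a promoter held several, the match nearest the start was taken. All are from the same RefSeq build and on the gene's strand, with the motif in capitals.
GINS1: agctttgttcgGCGCCAAAgcgcggagcgg
CLSPN: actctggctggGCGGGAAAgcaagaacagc
POLE2: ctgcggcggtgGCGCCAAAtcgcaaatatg
MCM2: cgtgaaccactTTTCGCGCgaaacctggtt
CDC6: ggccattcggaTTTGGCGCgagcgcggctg
They lie at chr20:25407667-25407696 for GINS1 (plus strand), chr1:35769965-35769994 for CLSPN (minus strand), chr14:49688201-49688230 for POLE2 (minus strand), chr3:127598402-127598431 for MCM2 (plus strand) and chr17:40287875-40287904 for CDC6 (plus strand). The MCM2 stretch holds the motif on both strands, as overlapping copies, of which the plus-strand one is in capitals. POLE2 has another match, from position -81 to -74 relative to the start, and UHRF1 has matches beginning at -112 and -14 relative to the start used above and at -160 relative to another listed start. The median log2 ratio was -0.46 for the 26 replication genes with TTTNNCGC and -0.32 for the 19 without. It was -0.04 for the 1164 other tested genes with the motif and -0.03 for the 7699 without. Of the 1164, 0.773% were at least 1.5-fold lower, against 0.769% of all tested genes. These are descriptions of letters in a window, and binding of E2F was not measured.

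Origin recognition and loading genes, with a class median of -0.46, divided by subunit. ORC1, the subunit made in late G1 and degraded in S phase, stood at 10.8 FPKM in the Indocin library and 17.1 FPKM in the DMSO library (-0.61). CDC6, the loading ATPase, stood at 36.5 FPKM with Indocin and 55.5 FPKM with DMSO (-0.59). CDT1, which brings MCM2-7 to the origin, stood at 26.7 FPKM with Indocin and 39.2 FPKM with DMSO (-0.54). Both loaders and ORC1 were thus lower by a like amount. ORC6, the smallest subunit, stood at 17.1 FPKM with Indocin and 24.0 FPKM with DMSO (-0.46). GMNN, which encodes geminin, the inhibitor of CDT1, stood at 24.99 FPKM with Indocin and 34.8 FPKM with DMSO (-0.46). The activator CDT1 and its inhibitor therefore differed in the same direction.

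The stable core of the complex differed less. ORC2 stood at 12.8 FPKM in the Indocin library and 14.9 FPKM in the DMSO library (-0.21), and ORC5 at 27.5 FPKM with Indocin and 32.4 FPKM with DMSO (-0.23). ORC3 stood at 4.49 FPKM with Indocin and 4.35 FPKM with DMSO (0.04), and after regression on transcript length, GC content and level its log2 ratio was -0.02. The median of ORC2 to ORC5 was -0.09, and that of ORC1, ORC6, CDC6, CDT1 and GMNN was -0.54. This grouping was made after the values were seen, and the difference was not tested.

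The 6 genes of the MCM2-7 helicase were all lower, and their class median was -0.52. MCM4 stood at 49.9 FPKM in the Indocin library and 78.8 FPKM in the DMSO library (-0.65). MCM2 stood at 71.0 FPKM with Indocin and 108 FPKM with DMSO (-0.60). These were the 2 subunits past 1.5-fold. MCM5 stood at 48.4 FPKM with Indocin and 70.4 FPKM with DMSO (-0.53), and MCM7 at 119.8 FPKM with Indocin and 171.5 FPKM with DMSO (-0.51). MCM6, at 30.8 FPKM with Indocin and 39.9 FPKM with DMSO (-0.36), and MCM3, at 29.7 FPKM with Indocin and 36.3 FPKM with DMSO (-0.28), differed least. The subunits form a hexamer with 1 copy of each, yet their FPKM covered a wide range in both libraries, in the same order from MCM7 down through MCM2, MCM4, MCM5 and MCM6 to MCM3. MCM8, a related helicase that acts with MCM9 in recombination repair and is no part of the hexamer, stood at 10.2 FPKM in the Indocin library and 12.7 FPKM in the DMSO library (-0.29).

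Genes of origin firing had a class median of -0.42 and the widest span after that of origin recognition. GINS1 stood at 28.2 FPKM in the Indocin library and 46.2 FPKM in the DMSO library (-0.70), and GINS2 at 20.0 FPKM with Indocin and 30.1 FPKM with DMSO (-0.57). GINS3 stood at 8.74 FPKM with Indocin and 12.4 FPKM with DMSO (-0.46), and GINS4 at 13.7 FPKM with Indocin and 18.2 FPKM with DMSO (-0.38). All 4 subunits of the GINS complex were thus lower, though by unequal amounts. CDC45, which joins MCM2-7 and GINS in the active helicase, stood at 21.1 FPKM with Indocin and 27.5 FPKM with DMSO (-0.37). The kinase that triggers firing differed less, with CDC7 at 11.4 FPKM with Indocin and 13.2 FPKM with DMSO (-0.20) and its activator DBF4 at 7.63 FPKM with Indocin and 9.12 FPKM with DMSO (-0.23).

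**Figure D2:**
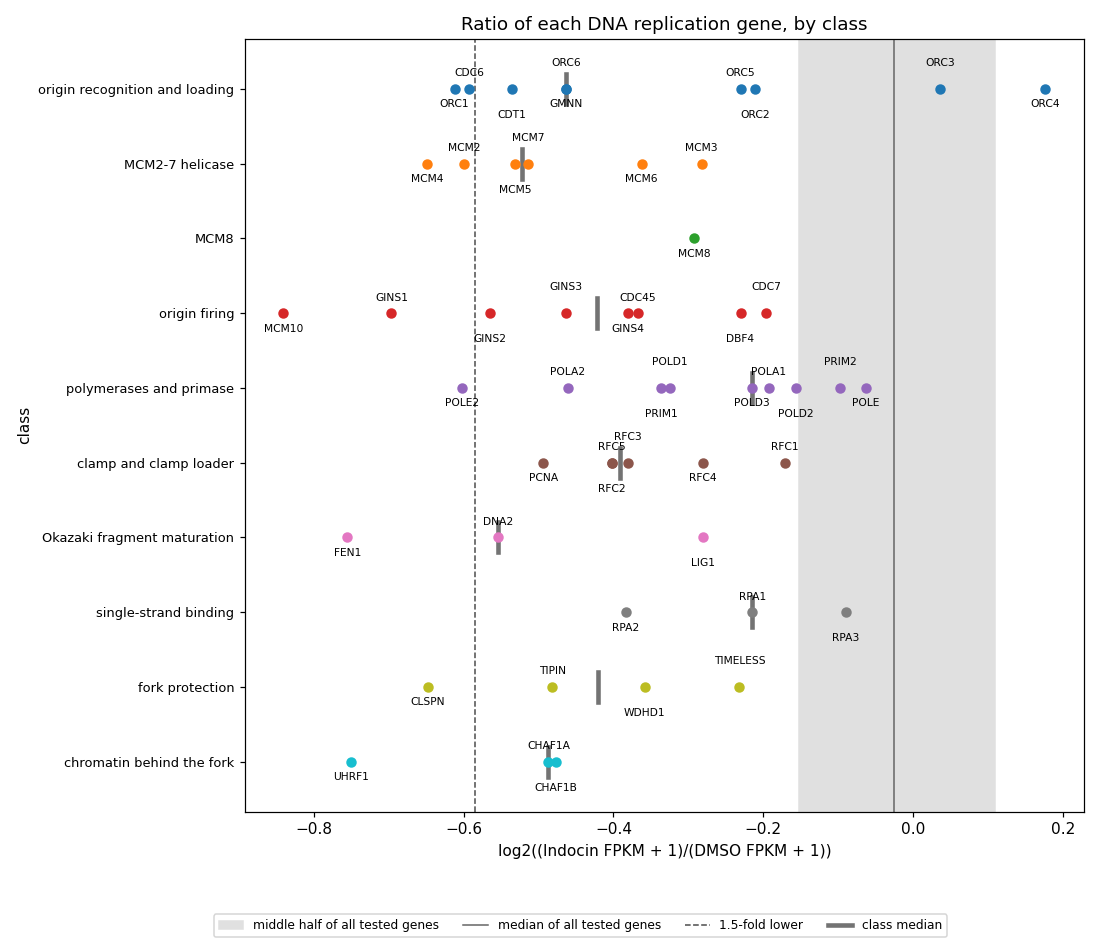
Log2 ratio of FPKM + 1, Indocin over DMSO, for each of the 52 genes by class. Points are genes, the dark bars are class medians, the grey band spans the quartiles of all tested genes (-0.15 and 0.11) and the dashed line is 1.5-fold lower. ORC3, PRIM2, POLE and RPA3 lie inside the band, POLD2 at its lower edge and ORC4 above its upper edge.

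DNA polymerase and primase genes shared with RPA the smallest class medians, -0.21 over 9 genes, and 1 of them was at least 1.5-fold lower. That gene was POLE2, the second subunit of polymerase epsilon, at 6.09 FPKM in the Indocin library and 9.77 FPKM in the DMSO library (-0.60). The catalytic subunit POLE stood at 11.5 FPKM with Indocin and 12.01 FPKM with DMSO (-0.06), and this ratio was 0.00 after scaling to a common upper quartile, 0.01 after scaling to a common sum and -0.02 with that sum taken without BCYRN1 and the SNAR genes. The genes of this leading-strand enzyme therefore lay near both ends of the class.

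Polymerase alpha showed a similar order. Its second subunit POLA2 stood at 12.9 FPKM in the Indocin library and 18.2 FPKM in the DMSO library (-0.46), and the catalytic POLA1 at 7.5 FPKM with Indocin and 8.71 FPKM with DMSO (-0.19). For primase, which lays down the RNA primer, the catalytic PRIM1 stood at 30.7 FPKM with Indocin and 39.0 FPKM with DMSO (-0.34) and PRIM2 at 18.7 FPKM with Indocin and 20.1 FPKM with DMSO (-0.10). PRIM2 has partial copies in the genome, so its value is uncertain.

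Polymerase delta, the lagging-strand enzyme, did not follow that order. The catalytic POLD1 stood at 16.7 FPKM in the Indocin library and 21.1 FPKM in the DMSO library (-0.32). POLD2 stood at 159.3 FPKM with Indocin and 177.7 FPKM with DMSO (-0.16), and POLD3 at 5.75 FPKM with Indocin and 6.83 FPKM with DMSO (-0.21). POLD2 had the highest mean level of the 52 genes. The small subunits are not among the 52. Of these POLD4 stood at 29.1 FPKM with Indocin and 23.6 FPKM with DMSO (0.30), and, named after their values were seen, POLE3 had a log2 ratio of -0.43 and POLE4 of 0.04.

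The sliding clamp PCNA stood at 74.3 FPKM in the Indocin library and 105.1 FPKM in the DMSO library (-0.49). The overlapping antisense transcript PCNA-AS1 was listed at 129.3 FPKM with Indocin and 175.0 FPKM with DMSO (-0.43). The strand setting of the counting is not given in the sources used here, so reads of this pair cannot be told apart with certainty. The small subunits of the loader that opens the clamp were all lower in the Indocin library. RFC2 stood at 37.7 FPKM with Indocin and 50.2 FPKM with DMSO (-0.40), and RFC5 at 27.1 FPKM with Indocin and 36.2 FPKM with DMSO (-0.40). RFC3 stood at 23.7 FPKM with Indocin and 31.1 FPKM with DMSO (-0.38), and RFC4 at 43.5 FPKM with Indocin and 53.1 FPKM with DMSO (-0.28). RFC1, the large subunit particular to this loader, stood at 17.6 FPKM with Indocin and 20.0 FPKM with DMSO (-0.17), the least of the class. The class median was -0.39, and none of the 6 was 1.5-fold lower.

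Beside FEN1, the helicase-nuclease DNA2 stood at 5.31 FPKM in the Indocin library and 8.26 FPKM in the DMSO library (-0.55), and DNA ligase 1, LIG1, which seals the fragments, at 7.63 FPKM with Indocin and 9.48 FPKM with DMSO (-0.28). Trimming and sealing genes of the lagging strand were thus lower by unequal amounts, with a median of -0.55. The 3 subunits of RPA, which coats single-stranded DNA, had a median of -0.21. RPA1 stood at 61.4 FPKM with Indocin and 71.4 FPKM with DMSO (-0.21), and RPA2 at 38.5 FPKM with Indocin and 50.5 FPKM with DMSO (-0.38). RPA3 had the smallest difference of the class, at 39.2 FPKM with Indocin and 41.8 FPKM with DMSO (-0.09). RPA3 overlaps an antisense transcript, RPA3OS, listed at 10.1 FPKM with Indocin and 10.2 FPKM with DMSO.

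At the fork, claspin, CLSPN, which passes the checkpoint signal from ATR to CHEK1, stood at 3.56 FPKM in the Indocin library and 6.15 FPKM in the DMSO library (-0.65). It is among the least abundant of the 52, so the pseudocount weighs on it, and with 5 FPKM its ratio was -0.38. TIPIN stood at 15.2 FPKM with Indocin and 21.6 FPKM with DMSO (-0.48), and its partner TIMELESS in the fork protection complex at 31.0 FPKM with Indocin and 36.5 FPKM with DMSO (-0.23). WDHD1, which links the helicase to polymerase alpha, stood at 7.40 FPKM with Indocin and 9.77 FPKM with DMSO (-0.36). The median of these 4 genes was -0.42. Behind the fork, the histone chaperone subunits CHAF1A, at 18.5 FPKM with Indocin and 26.3 FPKM with DMSO (-0.49), and CHAF1B, at 14.9 FPKM with Indocin and 21.2 FPKM with DMSO (-0.48), had nearly the same ratio, both short of that of UHRF1, and the median of the 3 was -0.49.

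Around the threshold the order was close. CDC6 (-0.59) and MCM2 (-0.60) were the genes just past 1.5-fold, and GINS2 (-0.57) and DNA2 (-0.55) the ones just short of it. In FPKM alone 12 of the 52 were at least 1.5-fold lower, GINS2 and DNA2 being the additional genes. The share of all tested genes in FPKM alone was not computed. With a pseudocount of 0.1 FPKM the same 12 genes were at least 1.5-fold lower, against 1.60% of tested genes. With both libraries set to a common upper quartile 5 of the 52 (CLSPN, FEN1, GINS1, MCM10 and UHRF1) were at least 1.5-fold lower, against 0.510% of tested genes, and 49 of 52 stayed below 0.

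**Figure D3:**
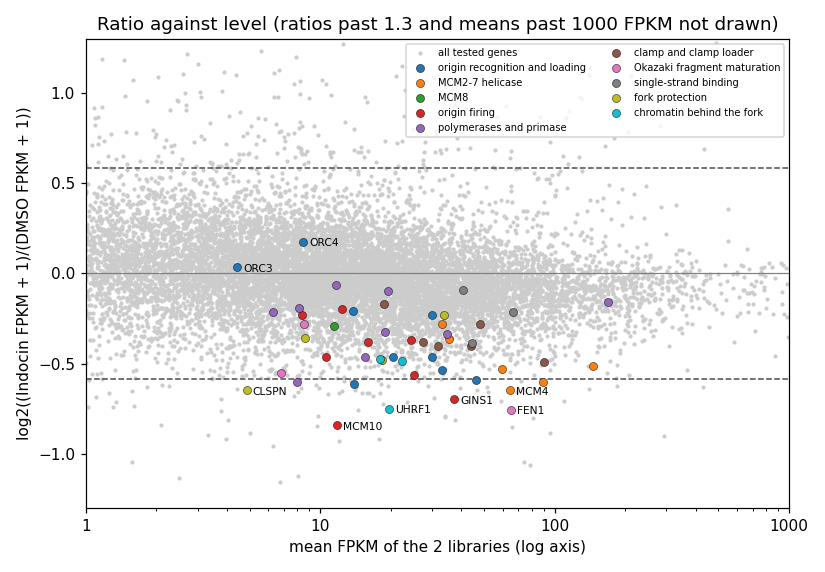
Log2 ratio of FPKM + 1, Indocin over DMSO, against the mean FPKM of both libraries on a log axis, for all tested genes (grey) and the 52 replication genes (coloured by class). The dashed lines are 1.5-fold. The 10 genes past the lower line cover mean levels from that of CLSPN to that of MCM2.

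Level and transcript properties were set beside the ratio. Across the 52 genes Spearman's rho between the log2 ratio and the mean level was -0.21, and across the other tested genes -0.24. For transcript length it was 0.10 and 0.08, and for transcript GC content -0.29 and -0.14. These are descriptions over genes of the same 2 libraries. The longest annotated transcripts of the 52 had a median length of 3326 bases and a median GC content of 45.5%, against 3590 bases and 48.7% for the other tested genes with an annotation. After regression on length, GC content and level the median of the 52 was -0.37. In that setting 9 were at least 1.5-fold lower, against 0.829% of tested genes with an annotation. DNA2 was among the 9, and CDC6 and MCM2 were not.

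Genes of written lists that do not contain the 52 were also lower in most cases. The lists cover further replication factors, the replication checkpoint, deoxynucleotide supply, G1/S control, and G2 and mitosis. These lists too were chosen with earlier results of these data known, so they are not independent of the data. For the counts that follow, 55.2% of all tested genes had ratios below 0 (41.0% with a common upper quartile and 39.4% with a common sum), 0.769% were at least 1.5-fold lower and 2.19% at least 1.5-fold higher. Of 36 further replication factors 30 had ratios below 0 (27 with either scaling), 1 was at least 1.5-fold lower and none was as much higher, with a median of -0.28. The 1 gene past 1.5-fold, TONSL, did not reach it with either scaling, but did with the sum taken without BCYRN1 and the SNAR genes. The lowest were TONSL, which recognises newly made chromatin, at 15.1 FPKM in the Indocin library and 23.9 FPKM in the DMSO library (-0.63), and TICRR, the human treslin needed for firing, at 3.71 FPKM with Indocin and 5.96 FPKM with DMSO (-0.56). The highest was the fork-remodelling enzyme ZRANB3 at 1.32 FPKM with Indocin and 0.7995 FPKM with DMSO (0.37).

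Of 10 checkpoint genes 8 were below 0, where 55.2% of all tested genes were, and 6 were with a common upper quartile or sum, where 41.0% and 39.4% were. The median was -0.27, and with the sum taken without BCYRN1 and the SNAR genes 8 were below 0. CDC25A, the phosphatase that activates CDK2 and is destroyed by the checkpoint, was the 1 gene past 1.5-fold, at 12.1 FPKM in the Indocin library and 23.7 FPKM in the DMSO library (-0.92), and the clamp-loading factor RAD17 was the highest (0.15). Of 11 genes of deoxynucleotide supply 10 were below 0 (9 with either scaling), against the same shares of all tested genes, with a median of -0.32. Among them the S-phase ribonucleotide reductase subunit RRM2 (46.6 FPKM with Indocin and 84.9 FPKM with DMSO, -0.85) was the lowest, and its p53-induced counterpart RRM2B (17.2 FPKM with Indocin and 14.7 FPKM with DMSO, 0.22) the highest.

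Of 21 tested genes of G1/S control 15 were below 0, as deposited and with either scaling, against 55.2% of all tested genes as deposited and 41.0% and 39.4% with the scalings, and the median was -0.27. The 3 past 1.5-fold, against 0.769% of all tested genes, were the cyclins CCNE2 (-0.93) and CCNE1 (-0.65), which activate CDK2, and the repressor E2F8 (-0.70), of which CCNE1 fell short of 1.5-fold with either scaling, but not with the sum taken without BCYRN1 and the SNAR genes. CCNE2 stood at 8.0 FPKM with Indocin and 16.1 FPKM with DMSO, CCNE1 at 9.38 FPKM with Indocin and 15.3 FPKM with DMSO and E2F8 at 2.65 FPKM with Indocin and 4.91 FPKM with DMSO. The inhibitor CDKN1A, which blocks CDK2 and binds PCNA, was the highest at 112.4 FPKM with Indocin and 79.0 FPKM with DMSO (0.50). All 25 genes of G2 and mitosis were below 0 (24 with a common sum, and 25 with that sum taken without BCYRN1 and the SNAR genes), against 55.2% of all tested genes, with a median of -0.36, from CDK1 (203.6 FPKM with Indocin and 381.4 FPKM with DMSO, -0.90) to CDC25C (6.49 FPKM with Indocin and 6.85 FPKM with DMSO, -0.07). The median of the 52 replication genes, -0.38, lay beside that of the mitotic genes. At least 1.5-fold lower were 10 of the 52 and, of the 25 mitotic genes, only CDK1, against 0.769% of all tested genes. With a common upper quartile 5 of the 52 were, and with a common sum 4, against 0.510% and 0.451% of tested genes. CDK1 was the only mitotic gene with either scaling. CCNA2 (-0.57) and AURKB (-0.56) lay just short of 1.5-fold as deposited. The lower quartiles were -0.53 for the 52 and -0.45 for the mitotic genes, and the difference between these lists was not tested.

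**Figure D4:**
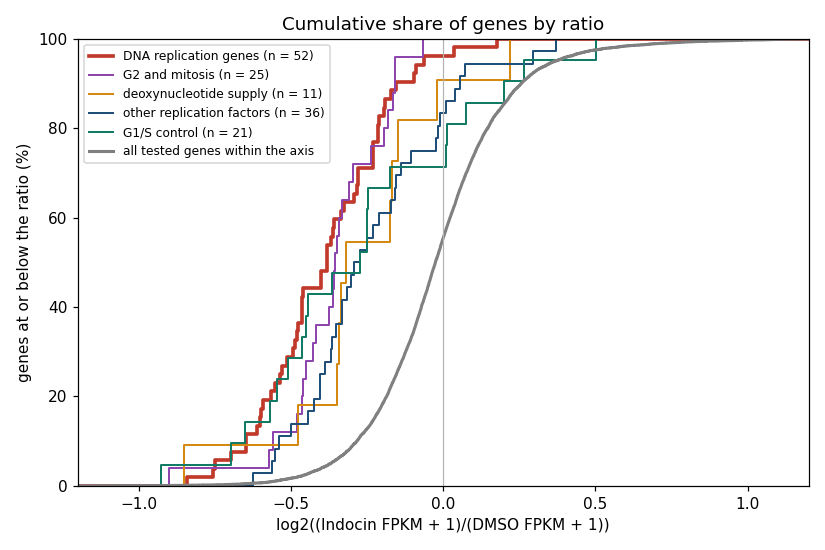
Cumulative share of genes (%) by log2 ratio of FPKM + 1, Indocin over DMSO, for the 52 replication genes, 4 related lists and all tested genes within the axis. The medians of the replication genes (-0.38) and of G2 and mitosis (-0.36) lie close together, to the left of that of all tested genes (-0.03). Their lower quartiles are -0.53 for the replication genes and -0.45 for G2 and mitosis.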

How the data were processed

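One stranded mRNA library per group was made from TRIzol-isolated RNA, per the labels' protocols. The authors deposited an FPKM value and a status for each gene symbol (per the file headers). Tools named in the submitters' processing notes are TopHat, Cufflinks, StringTie, Cuffnorm and bcl2fastq, with hg19 and GRCh37 as builds. Their versions, the annotation and the strand setting were not given in the sources used here. Each table has 25268 symbols, all of status OK, of which 6841 were listed at 0 in both. FPKM summed to 583096 in the Indocin library and 617510 in the DMSO library.

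Ratios were taken on the log2 scale after adding 1 FPKM to each deposited value, for genes averaging 1 FPKM or more. Symbols of microRNA, snoRNA, snRNA, Y, 7S, vault and similar short RNA families (2025 symbols, 74 of them at that level) were left out. This pattern did not cover BCYRN1 and 4 SNAR genes, which stayed among the tested genes and were left out in an alternative chosen after seeing the data. A count test needs counts, which FPKM are not, and 1 library per group allows no other test. Relative depth was read from 1335 genes averaging under 0.05 FPKM: 45.5% had a ratio within 1% of 1.014 times a quotient of small whole numbers, while the median over other factors was 2.17%. Absolute depth is unknown, so no counting interval is given.

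All 52 genes are named, and of each further list the genes past 1.5-fold or at its ends. A few others of these lists were named after their values were seen. The genes and lists were chosen with earlier results of these data known. Transcript length and GC content came from GENCODE 29 (GRCh38) by symbol, for 93.8% of tested genes and all 52. The ratio calculation was tested on simulated data. Python 3.11.15, numpy 2.4.6, pandas 2.3.3, scipy 1.17.1 and matplotlib 3.10.9 were used.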

Additional observations from a re-analysis of the deposited data

How the results depend on the processing

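Alternatives were other pseudocounts, other filters on low values, other scalings, short RNA genes kept, regression on transcript length, GC content and level, and other fold thresholds. The median of the 52 replication genes stayed between -0.40 (pseudocount 0.1 FPKM) and -0.30 (same sum), between 49 and 51 genes stayed below 0 (49 of 50 with the filter at 5 FPKM), no class median changed sign and none of the 52 reached 1.5-fold higher. The count of the 52 at least 1.5-fold lower was 10, and it was 5 with a pseudocount of 5 FPKM, 5 with the same upper quartile, 4 with the same sum, 33 at the looser fold threshold tried and 0 at 2-fold. FEN1, GINS1, MCM10 and UHRF1 were the 4 with the same sum. An alternative chosen after seeing the data also left out BCYRN1 and 4 SNAR genes. The count at least 1.5-fold lower was then 10 as deposited, against 0.736% of tested genes. With the same sum it was 6 (those 4 with CLSPN and MCM4), against 0.610%. With a pseudocount of 5 FPKM the class medians of Okazaki fragment maturation and fork protection were -0.36 and -0.32.

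Among all tested genes 262 were at least 1.5-fold higher and 92 lower. These counts were 420 and 191 with a pseudocount of 0.1 FPKM, 126 and 39 with 5 FPKM, 321 and 61 with the same upper quartile, 325 and 54 with the same sum, 827 and 875 at the looser fold threshold and 90 and 8 at 2-fold. With the filter raised to 5 FPKM 168 genes were at least 1.5-fold higher, as fewer genes were tested. The same upper quartile moved the median of all tested genes to 0.04 and the same sum moved it to 0.05 (0.01 without BCYRN1 and the SNAR genes). Which scaling is right cannot be told from 1 library per group.

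No paired analysis was possible because each group has 1 library, and leaving out a library would leave no comparison. Symbols with close copies or overlapping antisense transcripts (PRIM2, PCNA and RPA3 among the 52) are uncertain.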
